A study of Arabidopsis thaliana with 6 samples.

Results

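The genes described here are plastid-encoded genes of Arabidopsis thaliana other than the subunit genes of photosynthesis and of the NDH complex. Most serve expression of the plastid genome or general plastid functions. Among them, ycf3 and ycf4 serve assembly of photosystem I and ccsA that of cytochromes, so the set is not free of genes that serve photosynthesis. The rule used annotation and no measured value. A probe set was a member when its annotation named 1 gene of the plastid genome and the gene symbol did not start with psa, psb, pet, ndh, atp or rbcL. This gave 26 probe sets for 26 genes, of 22746 probe sets on the Affymetrix ATH1 array outside the array controls. They held 8 genes of the small and 7 of the large ribosomal subunit, 4 of the RNA polymerase, matK, clpP, accD, and ycf3, ycf4, ccsA and cemA. No probe set of a plastid ribosomal RNA or transfer RNA was among them. Another 7 probe sets, for 6 genes of this kind in the inverted repeat, listed 2 gene records each and were left out.

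Root tips of seedlings aged 7 days were profiled on 6 arrays, 1 per sample, in 3 groups of 2. The groups were untreated Col-0 roots at 0 min (the start), untreated Col-0 roots at 120 min, and roots at 120 min whose treatment was given as GA (gibberellin, a hormone that promotes growth through the breakdown of DELLA repressor proteins). The treated samples also had Col-0 as their genetic background, but their source name was GA2oxOE1I and they carried a label of gene knock out, so plant line and treatment cannot be told apart. The seedlings of all groups were grown in continuous light on plates with sucrose. The labels do not say whether replicates were grown apart, and the p-values reflect the spread of these arrays only, which may be technical.

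Plastids keep a small genome of their own, and its genes of gene expression work together with many proteins imported from the nucleus. The plastid-encoded RNA polymerase is built from the rpo gene products, with sigma factors supplied by the nucleus, while a nucleus-encoded phage-type polymerase transcribes the rpo genes and other housekeeping genes. The ribosome mixes plastid-encoded and imported proteins, and so do the Clp protease and the acetyl-CoA carboxylase that starts fatty acid synthesis. Root plastids are mostly not green, yet they make fatty acids, amino acids and starch, so that housekeeping functions are needed there as well. Plastid transcripts are often made as long transcripts of several genes, which are then cut, and in plastids poly(A) tails mark RNA for breakdown.

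Values are MAS5 signals on a linear scale, and all tested probe sets had a median of 88.9 to 91.3 on every array. Signals of different probe sets do not rank the abundance of their transcripts. Differences are given on the log2(signal + 16) scale, which understates those of dim genes. Array quality differed most on treated replicate 1. For actin, the signal at the 3' end over that at the 5' end was 14.8, against 2.22 to 4.94 on the other 5 arrays. Untreated replicate 1 read 4.94 at 0 min and 4.44 at 120 min, and the replicate 2 arrays 2.22 to 2.52. The same ratio on treated replicate 1 was 1.76 for GAPDH, against 0.759 to 1.36 elsewhere, and 1.80 for ubiquitin, against 0.859 to 1.14. The 25S ribosomal RNA control read 61.3 on treated replicate 1, against 812 (untreated replicate 1 at 120 min) to 5288. Of the 13 root tip markers listed, EXPA7 and EXPA18 of root hair cells had a named probe set, with a summed signal of 448.9 and 527 in treated roots, 559.8 and 632 in untreated roots at 120 min, and 570.5 and 699.7 at 0 min. Of the 7 green tissue markers, RCA (Rubisco activase) and LHCB4.1 (a light-harvesting protein) had one. Their summed signal was 150.5 and 275 in treated roots, 183 and 462 in untreated roots at 120 min, and 228 and 276 at 0 min, in the order of the replicate numbers. The other markers were not analysed here.

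The first comparison asked whether these genes differed between treated and untreated roots at 120 min. On treated replicate 1, most of them read lower than on any other array: 20 of the 26 had their lowest signal of the 6 arrays there, or 76.9%. Among the 13647 probe sets tested, 24.6% did, and of the 23 members among these it was 18. For 3 members (rpl32, ccsA and rpoA) treated replicate 1 was instead the highest array, where it was for 27.7% of the tested probe sets. Treated replicate 2 was the lowest array for 1 member, rps19. The median signal of the 26 genes was 103 and 219.6 after treatment (replicates 1 and 2), 177 and 210.4 after 120 min without it and 236 and 212 at 0 min. The 2 treated arrays enclosed both untreated values at 120 min. As these are whole root tips, fewer cells or plastids of a kind and less RNA per cell cannot be told apart. Treated replicate 1 also differed most in array quality, as given above, and the part of this was not tested.

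The median log2 difference of the 26 genes between treated and untreated roots at 120 min was -0.30, and that of all 13647 tested probe sets was 0.0092. For scale, the SD between replicates of the members' median log2 level, pooled over the groups, was 0.42. The difference was below 0 for 20 genes and above 0 for 6. The size of the median difference rested on treated replicate 1: without that array the median was -0.10 with 17 genes below 0, and without treated replicate 2 it was -0.71. Set against the untreated array of the same number, treated replicate 1 gave a median of -0.54 and treated replicate 2 one of -0.095. A signal lower by more than 0.5 in log2 was seen for 17 of 26 members between the replicate 1 arrays and for 4 between the replicate 2 arrays. Among the tested members these were 15 and 2 of 23, where 11.8% and 7.06% of all tested probe sets passed the same limit.

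Treated replicate 2 alone lay below both untreated arrays at 120 min for 7 of the 23 tested members and above both for 6, where the shares of all tested probe sets were 30.6% and 28.8%. Treated replicate 1 alone lay below both for 18 and above both for 4, against 33.3% and 39.1%. Most of the lower group mean thus came from 1 of its arrays. The quality measures of that array are given above, and their part in these values was not tested.

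**Figure D1:**
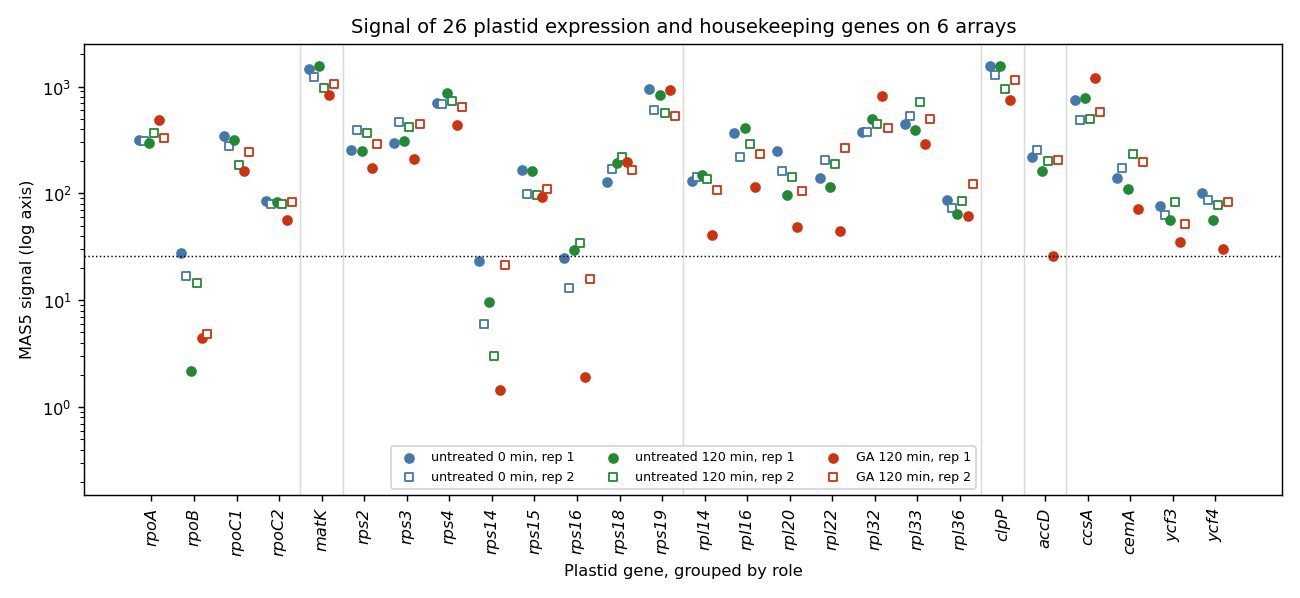
MAS5 signal of each of the 26 genes on each of the 6 arrays (log axis), with genes grouped by role and the dotted line at 25.8, the mean signal above which a probe set was tested. The filled red point of treated replicate 1 is the lowest of the 6 for 20 genes and the highest for rpl32, ccsA and rpoA.

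Tested by limma across all probe sets, 0 of the 23 members passed between treated and untreated roots at 120 min, as did 0% of all 13647 probe sets (lowest adjusted p = 0.999). At an unadjusted p under 0.05 there were 2 members, rpl16 and rpl14, against 1.11% of all tested probe sets. The 2 groups did not overlap, with treated roots lower, for 4 of the 23 (rpl16, rpl14, rps4 and ycf3), against 10.3% of all, and with treated roots higher for 0 of the 23, against 11.4%. For the median member the 95% confidence interval reached 0.74 in log2 to either side, so smaller differences of such a gene could not be told from 0.

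Of the 4 RNA polymerase genes, 2 had their lowest signal on treated replicate 1 and 1 had its highest there. The gene rpoA, for the alpha subunit around which the enzyme assembles, read 315 and 307 at the start, 296 and 369 after 120 min without treatment, and 481 and 327 after treatment. Its signal on treated replicate 1 was the highest of the 6, while treated replicate 2 lay between the untreated arrays at 120 min, and the log2 difference was 0.25 (SE 0.26). The beta' subunit gene rpoC1 ranged from 164 to 348, lowest on treated replicate 1 and next lowest on untreated replicate 2 at 120 min. The beta'' subunit gene rpoC2 read 79.2 to 83.9 on 5 arrays and 56.1 on treated replicate 1. The beta subunit gene rpoB, which stands first in the transcription unit with rpoC1 and rpoC2, lay below the signal limit of 25.8 and did not pass when that limit was removed. It read 27.5 and 16.7 at the start, 2.16 and 14.6 after 120 min without treatment, and 4.45 and 4.83 after treatment. All 3 genes of that unit had differences below 0 between the group means at 120 min (-0.19 for rpoB, -0.26 for rpoC1 and -0.20 for rpoC2), while that of rpoA was above 0.

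The gene matK, for the maturase that helps to splice group II introns of plastid transcripts, read 1469.5 and 1239 at the start, 1571 and 960.3 after 120 min without treatment, and 839 and 1051 after treatment. Treated replicate 1 was the lowest array, and treated replicate 2 lay between the untreated arrays at 120 min. The log2 difference from untreated roots at 120 min was -0.38 (SE 0.29), and it was -0.22 without treated replicate 1 and -0.032 without untreated replicate 1 at 120 min. The gene clpP, for the catalytic subunit of the Clp protease of the stroma, was again lowest on treated replicate 1, at 1569 and 1271 at the start, 1553 and 957 after 120 min without treatment, and 746 and 1155 after treatment. Its difference was -0.39 (SE 0.32), which became -0.078 without treated replicate 1 and -0.043 without untreated replicate 1 at 120 min. In both genes the replicate 1 arrays differed by -0.89 and -1.04 and the replicate 2 arrays by 0.13 and 0.27, so that the sign turned with the pair compared.

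Of the 8 genes of the small ribosomal subunit, 6 had their lowest signal on treated replicate 1. The gene rps4, whose counterpart in Escherichia coli binds early in assembly of the subunit, read 701 and 689 at the start, 869 and 726 after 120 min without treatment, and 433 and 646 after treatment. Both treated arrays lay below all 4 untreated arrays, with a log2 difference of -0.57 (SE 0.26) against 120 min (adjusted p = 0.999 by limma). The gene rps19 read 953 and 607 at the start, 825 and 562 after 120 min without treatment, and 927 and 530.0 after treatment. Here the replicate 1 arrays were high and the replicate 2 arrays low in every group, and the difference of 0.041 (SE 0.35) was close to 0. The gene rps18 read 127 and 168 at the start, 190.5 and 218 after 120 min without treatment, and 197 and 166 after treatment, with treated replicate 2 below and treated replicate 1 between the untreated arrays at 120 min. Treated replicate 1 was the lowest array of rps2 (from 171 to 396), of rps3 (from 209 to 465) and of rps15 (from 92.7 to 164).

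The dimmest genes of the small subunit lay below the signal limit, and they did not pass when the limit was removed. The gene rps16 read 24.6 and 12.9 at the start, 29.8 and 34.2 after 120 min without treatment, and 1.90 and 15.8 after treatment, so that both treated arrays lay below both untreated arrays at 120 min and the treated arrays enclosed the lower 0 min value. The gene rps14 read 23.2 and 5.95 at the start, 9.67 and 3.00 after 120 min without treatment, and 1.45 and 21.2 after treatment, with treated replicate 1 the lowest and treated replicate 2 above both untreated arrays at 120 min.

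In the large ribosomal subunit, 6 of 7 genes had their lowest signal on treated replicate 1, and 1, rpl32, had its highest there. The gene rpl16, whose counterpart in Escherichia coli lies near the peptidyl transferase centre, read 370.4 and 218 at the start, 412 and 289 after 120 min without treatment, and 114 and 234 after treatment. Both treated arrays lay below both untreated arrays at 120 min, but only treated replicate 1 lay below both 0 min arrays. The difference at 120 min was -1.002 (SE 0.37), with an unadjusted p of 0.0248 and an adjusted p of 0.999 by limma, and leaving out single arrays gave values from -1.47 to -0.53. The neighbouring gene rpl14 read 129 and 142 at the start, 149.7 and 137 after 120 min without treatment, and 40.3 and 108 after treatment. Its treated arrays lay below all 4 untreated arrays, with a difference of -0.93 (SE 0.35) and an unadjusted p of 0.0256 (adjusted p = 0.999 by limma), which became -0.36 without treated replicate 1.

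The gene rpl32 read 372 and 377 at the start, 494 and 441 after 120 min without treatment, and 820.2 and 408 after treatment. Treated replicate 1 was far above the other arrays, whereas treated replicate 2 lay below both untreated arrays at 120 min, and the difference of 0.30 (SE 0.32) became -0.19 without treated replicate 1. The gene rpl22 had its highest and its lowest signal in the treated group, 263 on replicate 2 and 44.4 on replicate 1, around untreated signals of 114 to 206. The same held for rpl36, with 122 and 61.3 around 64.2 to 87.3. The gene rpl20 read 48.4 and 106 in treated roots and 95.9 and 143 in untreated roots at 120 min, which overlapped. The gene rpl33 ranged from 290.3 to 723 over the 6 arrays, lowest on treated replicate 1 and highest on untreated replicate 2 at 120 min.

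The largest gap between the 2 treated arrays was that of accD, for the beta subunit of the carboxyltransferase in plastid acetyl-CoA carboxylase. It read 221 and 256 at the start, 163 and 202 after 120 min without treatment, and 25.8 and 205 after treatment. Treated replicate 1 stood apart from the other 5 arrays, while treated replicate 2 was close to untreated replicate 2 at 120 min. The log2 difference of -1.04 (SE 0.62) between the groups at 120 min became 0.16 without treated replicate 1 and -2.24 without treated replicate 2.

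The 4 remaining genes serve assembly of photosystem I (ycf3 and ycf4), the attachment of haem to cytochromes (ccsA) and the plastid envelope (cemA). The gene ycf3 read 76.4 and 63.2 at the start, 56.6 and 82.9 after 120 min without treatment, and 34.9 and 51.1 after treatment. Its treated arrays lay below all 4 untreated arrays, and the replicate 1 arrays and the replicate 2 arrays differed by similar amounts (-0.51 and -0.56), with -0.54 (SE 0.28) for the group means and an adjusted p of 0.999 by limma. The gene ccsA read 747 and 481 at the start, 786 and 497 after 120 min without treatment, and 1203 and 579 after treatment. As for rps19, replicate 1 was higher than replicate 2 in every group, and the difference of 0.41 (SE 0.39) turned to -0.11 without treated replicate 1. The gene ycf4 read 30.2 and 83.8 in treated roots, around 56.5 and 77.2 in untreated roots at 120 min. The gene cemA ranged from 70.9 to 233, lowest on treated replicate 1 and highest on untreated replicate 2 at 120 min.

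**Figure D2:**
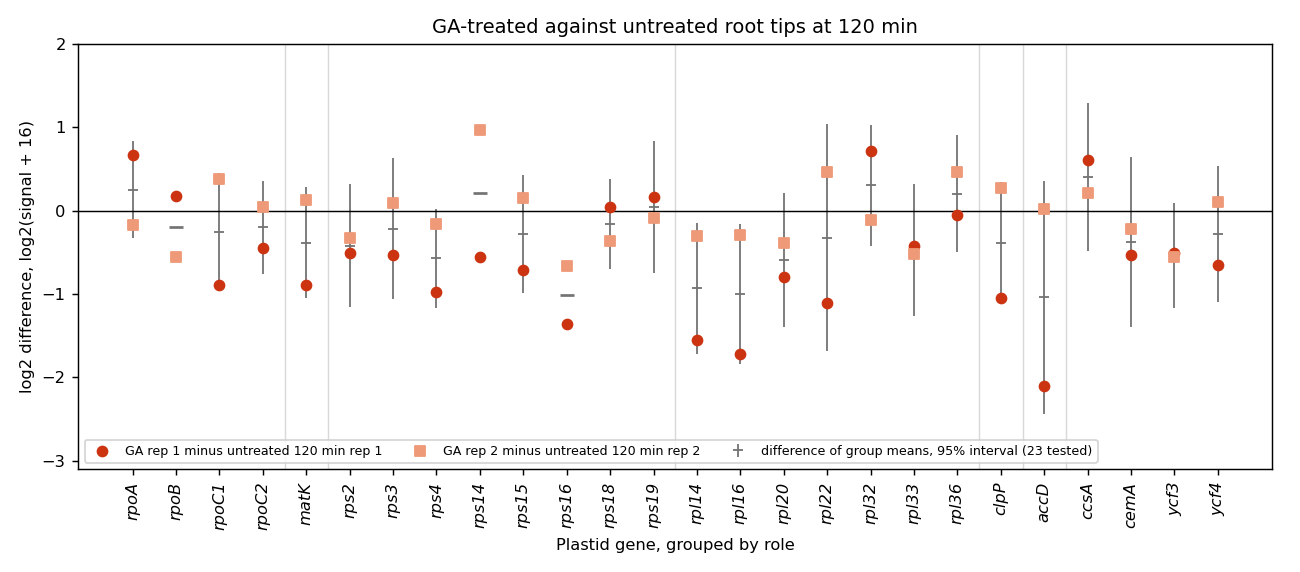
log2 difference between treated and untreated roots at 120 min for each of the 26 genes. Red circles set the replicate 1 arrays and light squares the replicate 2 arrays against each other, the grey dash is the difference of the group means, and the grey line is its 95% confidence interval from limma for the 23 tested genes. The circles lie below 0 for 20 genes and reach -2.10 at accD, while the squares lie on both sides of 0, with 14 genes below.

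The second comparison asked what differed between the start and 120 min without treatment. No shift of the genes as a group was seen. The SD between replicates of the members' median log2 level was 0.42, so a smaller shift could not be told from none. The median log2 difference was -0.031, with 10 genes above 0 and 16 below, and that of all tested probe sets was -0.02. Centring each array on its median turned the members' median to 0.012. The 2 groups did not overlap, with 120 min higher, for rps18, rpl32 and rps4, or 3 of 23 tested members, where 11.3% of all tested probe sets did so. They did not overlap, with 120 min lower, for rpl20, ycf4 and accD, again 3 of 23, against 15.8%. These shares are near the background. By limma 0 of the 23 passed, as did 0% of all probe sets, and 0 had an unadjusted p under 0.05, against 1.08%.

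Of these genes, rpl20 had the largest difference. It read 95.9 and 143 at 120 min and 251 and 162 at 0 min, a log2 difference of -0.71 (SE 0.36) with an adjusted p of 1 by limma. The difference was -0.42 (SE 0.36) for ycf4, from 102 and 87.4 to 56.5 and 77.2, and -0.36 (SE 0.62) for accD. With 120 min higher, the difference was 0.44 (SE 0.24) for rps18, 0.31 (SE 0.32) for rpl32 and 0.19 (SE 0.26) for rps4. The 95% confidence interval of each of these 6 differences included 0. Below the signal limit, rps16 was apart with 120 min higher and rpoB with 120 min lower.

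The third comparison, of the treated roots with the untreated start, holds time, plant line and treatment together. It shares the treated arrays with the first and the 0 min arrays with the second comparison. The treated arrays lay below both 0 min arrays for 9 of the 23 tested members (accD, rpl20, rpl14, ycf4, clpP, rpoC1, ycf3, matK and rps4), against 15% of all tested probe sets, and above both for rpl32 and rpoA, or 2 of 23, against 13%. The median difference of the 26 genes was -0.44, with 21 below 0, and that of all tested probe sets was -0.012. Without treated replicate 1 the median was -0.13 with 16 genes below 0, and without treated replicate 2 it was -0.76.

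Treated replicate 1 alone lay below both 0 min arrays for 18 of the 23 tested members and above both for 4, where the shares of all tested probe sets were 36.7% and 39.4%. Treated replicate 2 alone lay below both 0 min arrays for 10 of the 23 tested members, where 37.4% of all tested probe sets did so, and above both for 5, against 29.1%. Among the members whose groups did not overlap, the largest differences were -1.40 (SE 0.62) for accD and -1.30 (SE 0.36) for rpl20, followed by -0.86 (SE 0.35) for rpl14 and -0.70 (SE 0.36) for ycf4. In the other direction rpl32 differed by 0.61 (SE 0.32) and rpoA by 0.34 (SE 0.26). For rpl20 the arrays of both 120 min groups lay below both 0 min arrays, while the treated and untreated arrays at 120 min overlapped. By limma 0 of the 23 passed, as did 0% of all probe sets, with 3 members (rpl20, rpl14 and accD) at an unadjusted p under 0.05, against 2.58% of all. For rpl20 the unadjusted p was 0.00546 and the adjusted p was 1. Without treated replicate 2, accD alone among the members passed, at -2.60 and an adjusted p of 0.0352 with 1 treated array left, which was assumed to vary like the other groups.

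The order of the replicates within the untreated groups was compared as well, and its counts lay near the background. Replicate 1 was above replicate 2 at both 0 and 120 min for 9 of the 23 tested members (matK, clpP, rpoC1, rpoC2, rps4, rps15, rps19, rpl16 and ccsA), against 32.8% of all tested probe sets, and below it at both times for 7 (rps2, rps3, rps18, rpl22, rpl33, accD and cemA), against 27.5%. The gene rps15 read 164 and 97.6 at 0 min and 162 and 96.1 at 120 min, and rps2 read 257 and 396 and then 251 and 364. In both genes the 2 arrays of a number read nearly the same at both times. The difference between replicates correlated between the untreated groups at 0.65 across the 23 members and at 0.31 across all tested probe sets. Between the treated group and the untreated groups at 0 and 120 min, it correlated at 0.41 and 0.46 across the members, against 0.36 and 0.34 across all. Genes are not independent replicates, and the points share their arrays. With the treated group included, the same order of the numbers held in all 3 groups for rps19 and ccsA (replicate 1 higher) and for rps2, rps3, rpl22, rpl33, accD and cemA (replicate 1 lower), against 23.6% and 18.6% of all tested probe sets.

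Genes that stand next to each other on the plastid genome did not always share their direction on treated replicate 1. In the ribosomal protein cluster, the members run from rps19 through rpl22, rps3, rpl16, rpl14 and rpl36 to rpoA. For the first and last of these members, that array read above the mean of the other 5, by 0.44 in log2 for rps19 and 0.56 for rpoA. The order holds members only and leaves out the inverted repeat probe sets, such as those of rpl2 and rpl23. On treated replicate 1 rpl2 read 253, against 619 to 1296 elsewhere, and rpl23 read 104, against 80.9 to 405. For the members between rps19 and rpoA the difference was below 0, at -1.66 for rpl22, -0.81 for rps3, -1.26 for rpl16, -1.40 for rpl14 and -0.38 for rpl36. The neighbours rpl32 and ccsA of the small single-copy region were both higher, by 0.95 and 0.97. The neighbours rpl33 and rps18 went apart, at -0.78 and 0.18. For rps18 and rps19, however, treated replicate 1 lay within the range of the other 5 arrays. It read 197 within 127 to 218 for rps18, and 927 within 530 to 953 for rps19. The series accD, ycf4 and cemA was lower throughout, at -2.42, -1.06 and -1.06. These are values of 1 array, without a test.

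**Figure D3:**
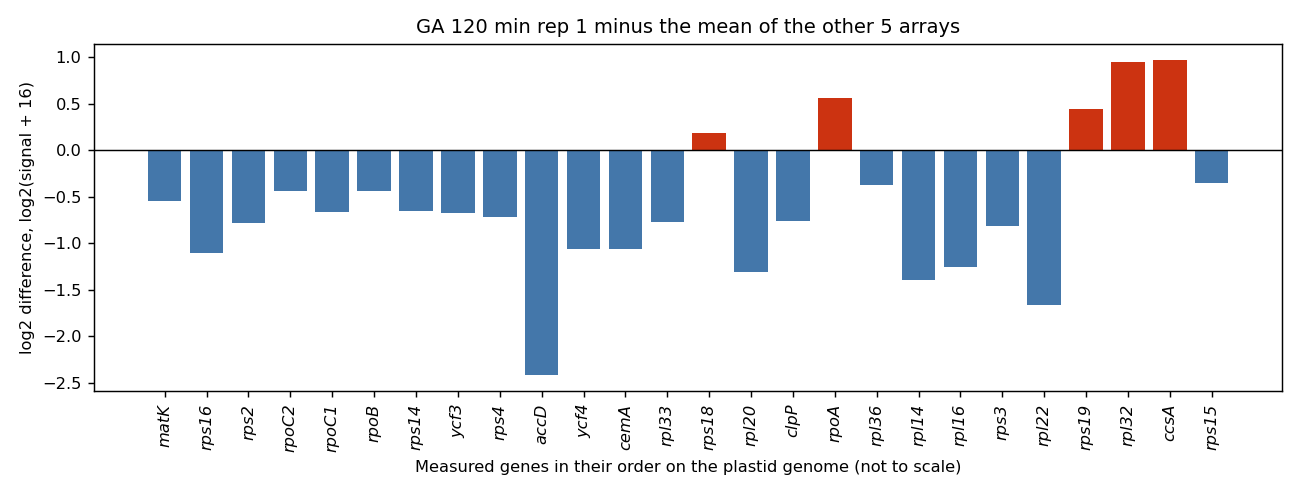
log2 difference of treated replicate 1 from the mean of the other 5 arrays for the 26 genes, in their order on the plastid genome (RefSeq order, not to scale). Bars below 0 are blue and bars above 0 red. Of the 26 genes, 21 lie below 0, and the bars above 0 belong to rps18, rpoA, rps19, rpl32 and ccsA.

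The plastid genes of photosynthesis and the NDH complex, measured by 43 probe sets, showed lower signals on treated replicate 1 as well: 18 of 43, or 41.9%, had their lowest signal there, and of the 30 tested ones 16, or 53.3%, against 18 of 23 tested members, or 78.3%. The difference between these shares was not tested. Their median signals were 73.4, 80.4, 52.8, 83.2, 34.8 and 71.96 on the 2 arrays each of the start, of 120 min without treatment and of treatment. Untreated replicate 1 at 120 min was the lowest array for another 12 of the 43 and for 2 of the 26 housekeeping genes. Among the tested ones these were 7 of 30 and 1 of 23, against 11.7% of all tested probe sets. The median difference at 120 min was -0.16 for these genes and -0.30 for the housekeeping genes. Over the tested ones alone it was nearly the same in both groups, at -0.33 and -0.32.

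Mitochondrial genes, measured by 18 probe sets matched by symbol, had their lowest signal on treated replicate 1 in 2 cases and a median difference of 0.24 at 120 min over all 18. Their median signals were 26.01, 23.1, 13.6, 16.3, 26.6 and 22.5 in the same order of arrays. Most lay below the signal limit, and over the 6 tested ones the median difference was 0.0052, with 3 above and 3 below 0. The 2 green tissue markers with a probe set were also lowest on treated replicate 1: RCA read 156 and 219 at the start, 138 and 339 after 120 min without treatment, and 109 and 202 after treatment, and LHCB4.1 read 71.8 and 57.5 at the start, 45.3 and 123 after 120 min without treatment, and 41.9 and 72.8 after treatment. Both markers were highest on untreated replicate 2 at 120 min. Of the plastid housekeeping genes, 5 of 26, or 4 of the 23 tested, had their highest signal there, near the 16.4% of all tested probe sets. Of the plastid genes of photosynthesis and the NDH complex, 14 of 43, or 13 of the 30 tested, did so. The part of green tissue in these values was not tested.

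**Figure D4:**
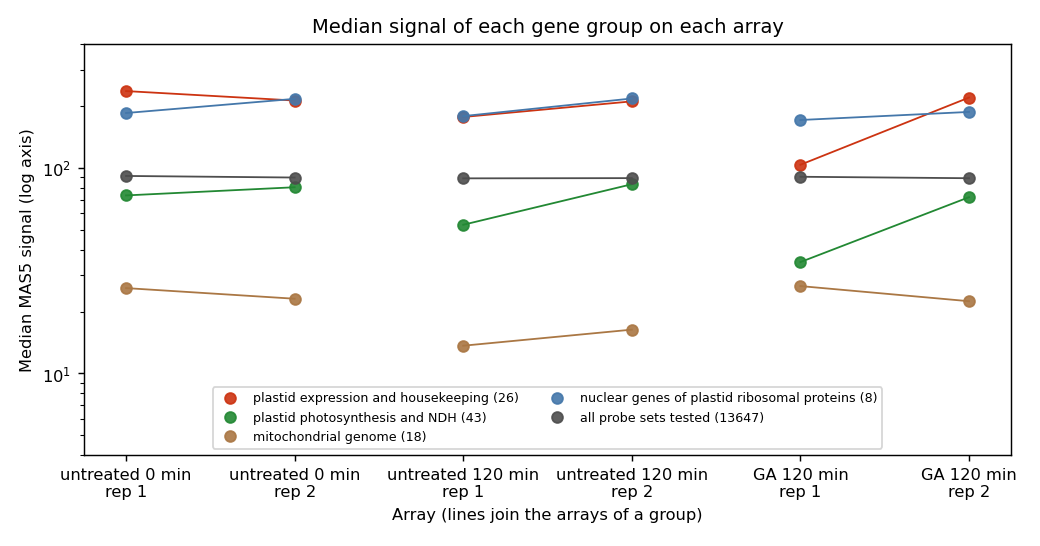
Median MAS5 signal (log axis) of 5 gene groups on each array, with the number of probe sets in brackets and lines joining the arrays of a group. The median of the 26 plastid housekeeping genes is 103 for treated replicate 1 and 177 to 236 elsewhere, whereas that of the 8 nuclear genes of plastid ribosomal proteins stays between 171 and 217.

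Nuclear genes whose products join these plastid-encoded ones were taken from 6 lists with 75 genes, of which 11 had a named probe set. Of 35 genes for plastid ribosomal proteins, 8 were measured and all 8 were tested. None passed in any of the 3 comparisons by limma (0 of 8 in each, with 0% of all probe sets called), and 0 of the 8 had an unadjusted p under 0.05. Their median differences were -0.083 for treatment at 120 min, 0.018 for time and -0.018 for treated roots against 0 min, and 1 of the 8 had its lowest signal on treated replicate 1. The brightest were AT3G54210, which read 222 and 224 at the start, 204 and 273 after 120 min without treatment, and 256 and 235 after treatment, and AT2G43030, which read 170.5 and 244 at the start, 271 and 251 after 120 min without treatment, and 208 and 191 after treatment. The third, AT1G29070, stayed between 194 and 233 on all 6 arrays. The treated arrays of AT2G43030 lay below both untreated arrays at 120 min, and those of AT3G54210 between them.

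Of 11 nuclear genes of the plastid Clp protease, CLPP4, a partner of plastid-encoded clpP, and AT1G09130 were measured. CLPP4 read 256 and 262 at the start, 305 and 231 after 120 min without treatment, and 196 and 278 after treatment, lowest on treated replicate 1 as clpP was. AT1G09130 ranged from 116 to 195 and was also lowest on treated replicate 1, as were 24.6% of all tested probe sets. Of 8 genes listed for the nucleus-encoded polymerases and sigma factors, AT5G15700 was measured and lay below the signal limit, at 2.82 to 21.2. The lists of the proteins that attach to the plastid-encoded polymerase (12 genes), of the other subunits of acetyl-CoA carboxylase (4) and of the inner envelope translocon (5) had no named probe set, so their genes were not analysed here.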

How the data were processed

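Transcript levels in root tips were measured on 6 Affymetrix ATH1 arrays. Total RNA was labelled with biotin in a one-cycle reaction, per the labels' protocols. The submitters' processing notes name MAS5 and GCOS. The genome build was not given in the sources used here. As deposited, a value is the intensity of a probe set (MAS5 signal) on a linear scale. By the values, the arrays had been brought to a common level before deposit (median of the tested probe sets 88.9 to 91.3). Precision is limited by the number of arrays. Detection calls were not used.

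Of 22810 probe sets, 64 array controls were set aside. Names came from a 2016 platform annotation, in which 13513 probe sets listed 1 gene, 503 listed several and 8730 were not listed. The RefSeq table of assembly TAIR10.1 gave plastid membership through gene identifiers, of which 13436 matched, and gene order, and no coordinates are printed. Mitochondrial probe sets were matched by symbols found on no other chromosome.

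Signals were taken to log2(signal + 16). Testing was limited to the 13647 probe sets with a mean signal above the 40th percentile, 25.8. Of the members, rpoB, rps14 and rps16 lay below it. The fit used limma 3.58.1 in R 4.3.3 with eBayes and a mean-variance trend, all 3 groups together and 3 residual degrees of freedom. Tests were two-sided with Benjamini-Hochberg adjustment over all tested probe sets at 0.05. The script was checked on simulated data. Alternatives were pseudocounts of 1 and 64, no filter and a filter at the 60th percentile, quantile normalization, median centring, no trend, a replicate block and leaving out each array.

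The members and lists were chosen with earlier results of these data known. Signals on every array were given for the 5 brightest members, the brightest of each role and, in each comparison, up to 4 tested members in each direction whose groups did not overlap, and other members were given by values or range after these were seen.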

Additional observations from a re-analysis of the deposited data

How the results depend on the processing

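No member passed the threshold in any comparison with pseudocount 1 or 64, no filter, a filter at the 60th percentile, quantile normalization, median centring, eBayes without a trend or the replicate block, and none of these settings called any of the probe sets tested. With an array left out, the count of probe sets called stayed at 0 for treatment at 120 min and for time, and ran from 0 to 7 for treated roots against 0 min. The 7 were called without treated replicate 2 and held accD. The median of the 26 genes ran from -0.71 to -0.10 at 120 min, from -0.11 to 0.014 for time and from -0.76 to -0.13 against 0 min with an array left out. The counts of genes below 0 ran from 17 to 22, from 11 to 16 and from 16 to 21.

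Of 23 member differences named in a comparison, 5 turned sign with an array left out. These differences at 120 min ran from -0.35 to 0.43 for rps19, from -0.11 to 0.93 for ccsA, from -0.19 to 0.79 for rpl32, from -0.016 to 0.52 for rpoA and from -2.24 to 0.16 for accD. In each of these cases the sign turned without treated replicate 1, and for rps19 also without untreated replicate 2 at 120 min. Median centring turned rps19 to -0.019. The other 182 of 183 values under the settings that kept all arrays kept their sign.

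The labels gave no meaning to the replicate numbers, which gave 2 pairs in a comparison, so they were not taken as pairs. The difference of replicate 1 from replicate 2 within a group correlated at 0.31, 0.36 and 0.34 between the groups across 13647 probe sets. With the replicate block, 0 probe sets were called in each comparison, the medians stayed at -0.30, -0.031 and -0.44, and the lowest adjusted p of a member was 0.826. With the 7 inverted repeat probe sets included, an alternative chosen after seeing the data, the medians were -0.36, -0.075 and -0.52.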

Other observations

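The 7 probe sets left out because they listed 2 gene records each carried 6 gene symbols of the inverted repeat. Their median signals were 276, 324, 88.2, 326 on the arrays of untreated roots at 0 and 120 min and 104 and 384 in treated roots. On treated replicate 1, 5 of the 7 had their lowest signal. Between untreated roots at 120 and 0 min, all 7 had a difference below 0, with a median of -0.20, and with a median of -0.63 between the replicate 1 arrays and 0.22 between the replicate 2 arrays. By limma, 0 of the 6 that were above the signal limit passed in any comparison, and 0 had an unadjusted p under 0.05.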
